A study of Homo sapiens with 14 samples.

Results

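The mRNAs of 36 aminoacyl-tRNA synthetase genes were followed through a polysome gradient in MDA-MB-231 cells with and without silencing of DAP5. The genes were taken from a list by symbol, 20 for the cytosolic enzymes and 16 for the mitochondrial ones, of 58434 gene symbols in the count table, and all 36 passed the filter on low counts in every comparison. MDA-MB-231 is a mesenchymal triple-negative breast cancer cell line. DAP5, encoded by EIF4G2, is a relative of the scaffold eIF4GI that lacks the part binding the cap-binding protein eIF4E. The 14 RNA-seq libraries came from 2 cultures of cells with a doxycycline-inducible non-silencing shRNA (shNSi) and 2 cultures of cells with a doxycycline-inducible shRNA against DAP5 (shDAP5), both held for 6 days in doxycycline at 1 ug/ml. Each of the 2 was 1 stably transduced line, sorted for the RFP that the vector expresses with the shRNA, so a difference between shDAP5 and shNSi is also a difference between 2 lines. Lysates from cells pre-treated with cycloheximide were separated on sucrose, and RNA was sequenced from total lysate, from light polysomes (2 to 3 ribosomes), from heavy polysomes (4 or more ribosomes) and, for shNSi alone, from a pool labelled moderate. Labels of the shDAP5 light libraries carry a second code, MD, that marks the moderate pool in shNSi, and the shDAP5 total libraries are titled as total polysome; groups were kept as the titles give them.

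Aminoacyl-tRNA synthetases join each amino acid to its tRNA and so supply every ribosome with charged tRNA. The cytosolic enzymes serve the nuclear-encoded proteome, and several of them sit in a multi-synthetase complex with the scaffold proteins AIMP1, AIMP2 and EEF1E1. The mitochondrial enzymes are encoded in the nucleus, translated in the cytosol and imported, and serve the few proteins encoded in mitochondrial DNA. Most amino acids have a separate gene for each compartment; GARS and KARS each supply both.

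Sequences are given for GARS, whose count covers 2 enzymes, and for the longest identical run between the cytosolic and the mitochondrial gene of a pair. GARS is at chr7:30594681-30634033 on the plus strand, and its single row in the count table stands for the cytosolic and the mitochondrial glycine enzyme. Its coding sequence (GENCODE v29 on GRCh38) is shown from base 1 to base 180, the first 60 codons, with the 2 in-frame ATG codons in capitals. The first, at codon 1, opens the form that carries the mitochondrial targeting sequence, and the second, at codon 55, is known as the start of the cytosolic form. G and C made up 74.4% of this window and 47.5% of the whole coding sequence.
GARS: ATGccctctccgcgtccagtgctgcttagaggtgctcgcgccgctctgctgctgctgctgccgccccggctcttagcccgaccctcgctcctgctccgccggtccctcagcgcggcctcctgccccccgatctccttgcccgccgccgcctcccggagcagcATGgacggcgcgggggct

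HARS (chr5:140673904-140691862, minus strand) and HARS2 (chr5:140691426-140699318, plus strand) are the cytosolic and mitochondrial histidine enzymes and lie head to head. They shared the longest identical run of coding sequence of the 17 cytosolic and mitochondrial pairs, 24 bases, shown in capitals with 12 bases on each side. The runs of the other pairs were 10 to 21 bases long.
HARS: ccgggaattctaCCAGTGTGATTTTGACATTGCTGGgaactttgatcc
HARS2: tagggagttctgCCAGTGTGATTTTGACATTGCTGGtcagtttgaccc

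Opposite-strand exons overlapped 14.2% of the exonic bases of HARS2, from HARS, and 15.8% of those of SARS2, from MRPS12; the deposited table's name carries the tag rev, which could mark counting on the reverse strand, but the strand setting itself is not given in the sources used here, so the counts of HARS2 and SARS2 are uncertain. No other member had more than 9.49% of its exonic bases overlapped. With HARS2 and SARS2 left out, 48 counts and medians of the groups held by the rule given in the last section and 4 moved. The 48 include those of the cytosolic group, which this step leaves as they are.

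The libraries held 25899838 to 30795910 counts, and the 36 genes together took 65424 to 267429 of them. EIF4G2 stood at 1392 and 1359 CPM (a gene's part of a library's counts, scaled to a fixed library size) in shNSi total RNA and at 526 and 730 CPM in shDAP5 total RNA, and its total mRNA fell by 1.11 on the log2 scale (SE 0.18; adjusted p = 0.0172, edgeR, quasi-likelihood F test, adjusted by Benjamini and Hochberg's method over all genes tested). The line markers VIM, CD44, AXL, MSN and CAV1 were all between 187 and 5233 CPM in the 4 total libraries, CDH1 and ESR1 stayed at or below 0.36 CPM there, and PGR was at 0. ERBB3 stood at 3.45 to 5.01 CPM. The scaling factors of the trimmed mean of M-values (TMM), which set CPM, were 0.763 and 0.702 for shNSi heavy polysomes and 1.04 and 0.932 for shDAP5 heavy polysomes.

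In total RNA of shNSi cells the cytosolic synthetase mRNAs were the more abundant group. Per kilobase of coding sequence they had a median of 79.4 CPM, from 37.6 for EPRS to 258 for SARS, and the mitochondrial ones a median of 15.4, from 4.09 for SARS2 to 84.8 for CARS2. SARS, the serine enzyme, and TARS, the threonine enzyme, led the order with means of 258 ± 44.6 and 216 ± 6.57 CPM per kilobase (SD, n = 2), values that lay within 1 SD of SARS from each other. YARS, KARS, WARS and GARS followed between 142 and 153, closer together than the SD of WARS (28.8). CARS2 was the one mitochondrial member among the cytosolic levels, in place 10 of 36, and all 15 others stood below EPRS, the last of the cytosolic genes. EPRS, a single chain that charges both glutamate and proline tRNA, was the lowest cytosolic gene per kilobase and has the longest coding sequence of the 36 (4536 bases).

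As a share of all counts, without TMM, the cytosolic genes took 0.487% and 0.448% of the 2 shNSi total libraries, 0.206% and 0.230% of the light, 0.238% and 0.380% of the moderate, and 0.750% and 0.810% of the heavy ones. In shDAP5 cells they took 0.460% and 0.482% of total, 0.230% and 0.224% of light, and 0.512% and 0.456% of heavy polysome counts. The total and light shares of the 2 cell lines overlapped, whereas both shDAP5 heavy shares lay below both shNSi heavy shares. The mitochondrial genes took 0.0647% and 0.0799% of shNSi heavy polysome counts and 0.0582% and 0.0537% of shDAP5 heavy polysome counts. Their shares of total RNA were 0.0581% and 0.0641% in shNSi and 0.0540% and 0.0512% in shDAP5, and their shares of light polysomes were 0.0464% and 0.0555% in shNSi and 0.0423% and 0.0412% in shDAP5. For them the total, the light and the heavy shares of shDAP5 all lay below those of shNSi.

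**Figure D1:**
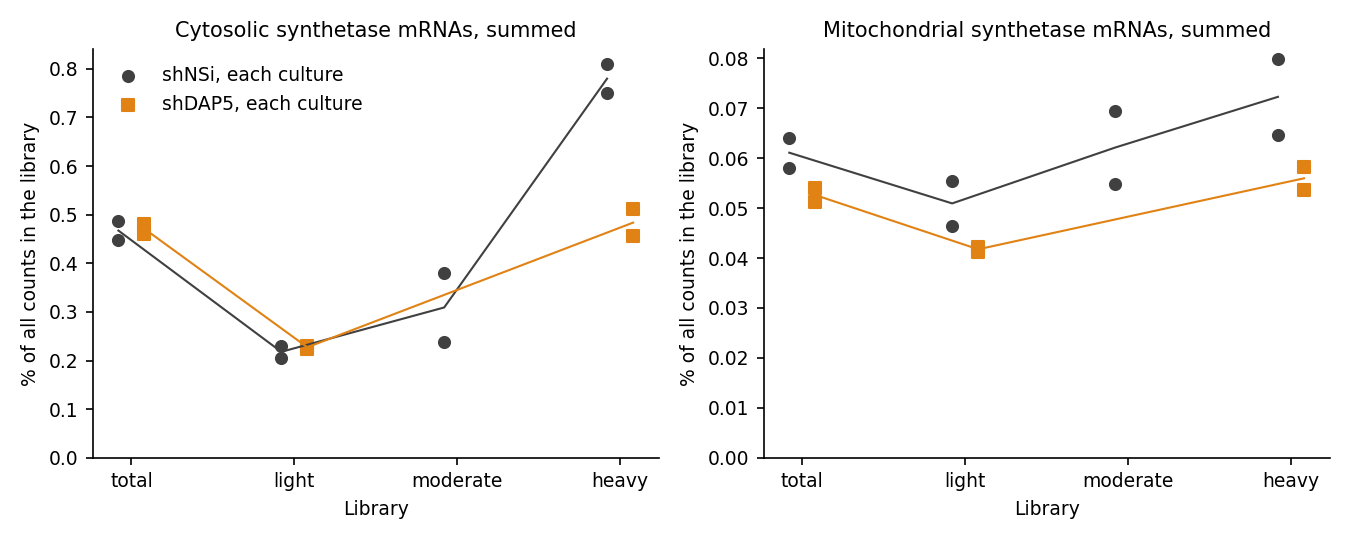
Summed counts of the 20 cytosolic (left) and 16 mitochondrial (right) synthetase genes as a percentage of all counts in each library (y axis), for total RNA and the light, moderate and heavy polysome pools (x axis). Points are single cultures (circles shNSi, squares shDAP5), lines join the means of 2 cultures, and shDAP5 has no moderate pool. The cytosolic share of shNSi heavy polysomes was 0.750% and 0.810%, against 0.512% and 0.456% in shDAP5.

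Within shNSi cells, the first question was where along the gradient these mRNAs sit. All 20 cytosolic mRNAs were higher in heavy polysomes than in total RNA (median log2 difference 1.13, from 0.94 for KARS to 1.37 for RARS), where 21.8% of the genes tested were called higher. Of the 16 mitochondrial mRNAs, 7 were called higher, with a median of 0.47. All 20 cytosolic values stayed above 0 with library size in place of TMM, with an offset for coding length and with no term for each culture. In these settings, however, the calls fell to 4, 4 and 0 of 20 and to 1, 2 and 0 of 16. Of all genes, 33.8%, 17.1% and 0% were called in either direction, and 28.1%, 8.24% and 0% were called lower. Light polysomes showed the opposite. There, 16 of 20 cytosolic mRNAs and 4 of 16 mitochondrial mRNAs were called lower than in total RNA, with medians of -1.25 and -0.38, against 11.7% of the genes tested. With no term for each culture no gene was called in this step either. With the length offset 2 mitochondrial mRNAs were called and the mitochondrial median turned above 0, while the cytosolic count moved by a smaller factor. In that setting 15.5% of all genes were called in either direction and 9.61% lower. From light to heavy polysomes the cytosolic mRNAs rose by a median of 2.38, from 1.41 for KARS to 3.01 for NARS, and all 20 were called. The mitochondrial median was 0.95, from 0.12 for CARS2 to 1.98 for TARS2, with 10 of 16 called. Of all genes tested, 33.8% were called higher in heavy than in light polysomes, and the median over all genes was -0.06. From the moderate to the heavy pool, 18 of 20 cytosolic and 7 of 16 mitochondrial mRNAs were called higher (medians 1.86 and 0.49, with 23.1% of all genes called higher). With no term for each culture 1 mitochondrial mRNA was called in this step (18.1% of all genes in either direction).

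Within shDAP5 cells, no synthetase mRNA of either group was called different between heavy polysomes and total RNA, a comparison in which 1.08% of all genes tested were called, every one of them lower. The cytosolic median was 0.08, from -0.65 for EPRS to 0.53 for YARS with 8 of 20 below 0, and the mitochondrial median was 0.13 with 3 of 16 below 0. Light polysomes of shDAP5 cells held less of these mRNAs than total RNA, as in shNSi: 18 of 20 cytosolic and 6 of 16 mitochondrial mRNAs were called lower (medians -1.28 and -0.32; 19.2% of all genes). From light to heavy polysomes, 19 of 20 cytosolic mRNAs and 9 of 16 mitochondrial ones rose (medians 1.25 and 0.59; 25.9% of all genes). The comparisons with total RNA and with light polysomes within 1 line share libraries with each other and are given side by side only.

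Total mRNA of the synthetases did not pass the test between shDAP5 and shNSi for any of the 36 genes, where 0.354% of all genes tested were called. The cytosolic median was -0.10, from -0.64 for VARS to 0.37 for CARS, and the mitochondrial median was -0.23, from -0.73 for LARS2 to 0.22 for PARS2. At an unadjusted p under 0.05 there were 3 of 36, against 1799 of all 14992 genes, a larger share. Light polysome mRNA gave no call among the 36 or among all 15529 genes tested (0%), although 1330 genes (8.56%) had an unadjusted p under 0.05, 2 of the 36 among them, and DESeq2 called 105 genes. The light medians were -0.05 for the cytosolic and -0.28 for the mitochondrial genes. With the shNSi moderate pool, which shares the code MD with the shDAP5 light libraries, as the control, 3940 genes (25.5%) were called, among them 5 cytosolic and 4 mitochondrial members, all 9 lower. Without shNSi replicate 1, 28.9% of all genes were called, and of the members 4 cytosolic and 6 mitochondrial ones were lower. The light polysome to total ratio likewise had no call among 15967 genes by edgeR or DESeq2 (0%; 833 genes with an unadjusted p under 0.05), with medians of 0.04 and -0.11. Against the moderate pool this ratio too had calls, in 4367 genes (27.5%), 6 cytosolic and 3 mitochondrial members among them, all lower. Leaving out shNSi replicate 1 gave 2030 calls (12.3%), with 2 members of each group, again lower.

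Heavy polysomes differed between the lines. Of the 20 cytosolic mRNAs, 12 fell in shDAP5 heavy polysomes, the other 8 were also below 0, and the median log2 change was -0.98, from -1.91 for EPRS to -0.06 for WARS. Of the 16 mitochondrial mRNAs, AARS2, EARS2, IARS2, LARS2 and TARS2 fell, and the median was -0.39. Over all 14270 genes tested 16.7% were called lower and 30.9% were called in either direction, and the median was 0.09, so the cytosolic share of 12 in 20 and the mitochondrial share of 5 in 16 are to be read against 16.7%. With the shNSi moderate pool as the control the cytosolic median was 0.48, none of the 20 was below 0 and no member was called (0.344% of all genes). No member was called either with the heavy and moderate counts of shNSi summed (median -0.39, 2.77% of all genes) or without shDAP5 replicate 2 (median -1.01, 0.0134%), and the length offset left 2 cytosolic calls and no mitochondrial one (median -0.61, 11.9%). Without shNSi replicate 2 there were 5 cytosolic calls and no mitochondrial one (14.1%), without shDAP5 replicate 1 there were 7 and 2 (19.9%), and library size in place of TMM gave 7 and 2 as well (25.5%).

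The heavy polysome to total ratio, here called translation efficiency, sets the heavy change against the total mRNA of the same culture. Translation efficiency of 12 cytosolic synthetase mRNAs fell in shDAP5 cells, and that of no mitochondrial one passed the test, where 8.23% of all 15374 genes tested were called lower and 13.1% in either direction. The 12 were AARS, CARS, DARS, EPRS, GARS, IARS, LARS, MARS, NARS, QARS, RARS and TARS. A block for replicate number gave 2 cytosolic calls (4.48% of all genes in either direction). Quantile-normalized values in limma gave 1 (4.92%), and no term for each culture gave 0 (0%). The cytosolic median was -1.01, from -1.57 to -0.30, the mitochondrial median was -0.33, from -0.95 to 0.22, and the median over all genes was 0.09. In all 20 cytosolic genes both shDAP5 cultures had a lower heavy to total ratio than both shNSi cultures, and the same held for 12 of the 16 mitochondrial genes, against 33.3% of all 15374 genes tested. The difference between the 2 groups of genes was not itself tested. In bulk libraries of this kind, values are relative to the rest of each pool, so fewer copies of an mRNA on heavy polysomes and more of all other mRNAs there cannot be told apart.

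**Figure D2:**
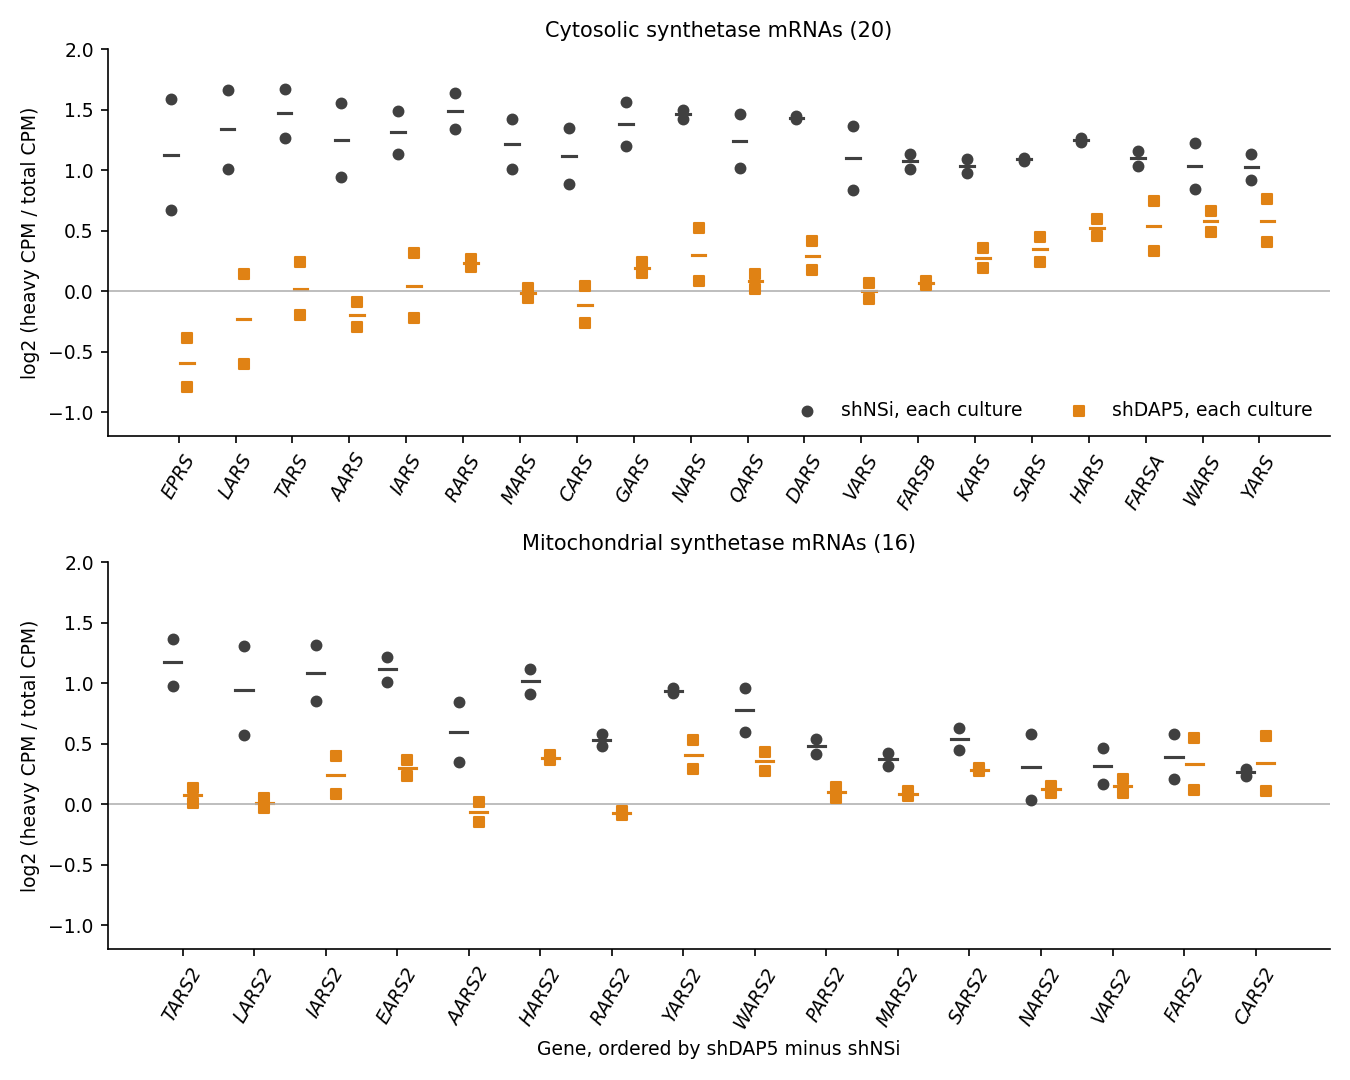
The log2 ratio of heavy polysome CPM to total CPM (y axis) for each cytosolic (top) and mitochondrial (bottom) synthetase gene (x axis), with 1 point for each of 2 shNSi (circles) and 2 shDAP5 (squares) cultures and a bar at the mean. Both squares lie below both circles for all 20 cytosolic genes and for 12 of 16 mitochondrial genes, as for 33.3% of all genes tested.

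EPRS showed the lowest value of all 36. It stood at 276 and 505 CPM in shNSi heavy polysomes and at 97.7 and 84.2 CPM in shDAP5 heavy polysomes, while total RNA held 174 and 168 CPM in shNSi and 128 and 146 CPM in shDAP5. Both shDAP5 heavy libraries lay far below both shNSi ones, and the 2 shNSi heavy libraries themselves differed more from each other than the 2 shDAP5 ones. Translation efficiency of EPRS fell by 1.57 on the log2 scale (SE 0.36; adjusted p = 0.00781, by the edgeR test named above for EIF4G2, as for all adjusted p-values here). LARS, the leucine enzyme, stood at 346 and 549 CPM in shNSi heavy polysomes and at 149 and 110 CPM in shDAP5 heavy polysomes, against 171 and 173 CPM and 136 and 168 CPM in the total RNA of the same cultures. Its heavy levels did not overlap, its total levels nearly met, and its translation efficiency fell by 1.42 (SE 0.35; adjusted p = 0.00997). TARS stood at 1155 and 1466 CPM in shNSi heavy polysomes and at 577 and 440 CPM in shDAP5 heavy polysomes. Its total level was 479 and 459 CPM in shNSi and 488 and 504 CPM in shDAP5, so that both shDAP5 total libraries were slightly above both shNSi ones while the heavy libraries differed in the other direction. Translation efficiency of TARS fell by 1.30 (SE 0.37; adjusted p = 0.0188).

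AARS, the alanine enzyme, stood at 383 and 529 CPM in shNSi heavy polysomes and at 159 and 125 CPM in shDAP5 heavy polysomes, with total levels of 199 and 180 against 169 and 154 CPM. The groups did not overlap in either, by a wide gap in heavy polysomes and a narrow one in total RNA, and translation efficiency of AARS fell by 1.30 (SE 0.35; adjusted p = 0.0142). GARS, whose 2 starts are printed above, stood at 830 and 788 CPM in shNSi heavy polysomes and at 427 and 391 CPM in shDAP5 heavy polysomes. Total GARS was 362 and 267 CPM in shNSi and 361 and 352 CPM in shDAP5, and these overlapped. Its translation efficiency fell by 1.04 (SE 0.36; adjusted p = 0.045), and the count cannot say which start was used. KARS, the other gene that serves both compartments, stood at 490 and 590 against 261 and 298 CPM in heavy polysomes without overlap, but its change of -0.62 (SE 0.35) did not pass (adjusted p = 0.226).

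FARSA and FARSB encode the 2 subunits of the cytosolic phenylalanine enzyme. In heavy polysomes FARSA stood at 368 and 427 CPM in shNSi and at 179 and 251 CPM in shDAP5, and FARSB stood at 169 and 223 CPM in shNSi and at 84.1 and 94.9 CPM in shDAP5. Neither overlapped between the lines. The log2 change of translation efficiency was -0.41 (SE 0.34) for FARSA and -0.86 (SE 0.33) for FARSB, with adjusted p = 0.436 and 0.0717 by edgeR's test, and the 2 values differed by less than the sum of their SEs.

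At the other end of the cytosolic group, WARS, the tryptophan enzyme, stood at 548 and 318 CPM in shNSi heavy polysomes and at 335 and 399 CPM in shDAP5 heavy polysomes. YARS, the tyrosine enzyme, stood at 571 and 424 CPM and at 294 and 412 CPM. WARS overlapped between the lines and YARS did not. HARS stood at 307 and 395 CPM in shNSi and at 180 and 209 CPM in shDAP5 heavy polysomes, again without overlap. Translation efficiency changes were -0.31 for WARS, -0.30 for YARS and -0.58 for HARS (SE 0.35, 0.35 and 0.34), none past the test.

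Among the mitochondrial mRNAs, TARS2, the threonine enzyme, had the lowest translation efficiency change, -0.95 (SE 0.34; adjusted p = 0.0537 by edgeR's test), just outside the threshold. It stood at 58.2 and 84.9 CPM in shNSi heavy polysomes and at 26.5 and 25.1 CPM in shDAP5 heavy polysomes. LARS2 stood at 42.6 and 111 CPM in shNSi heavy polysomes and at 22.4 and 21.3 CPM in shDAP5 heavy polysomes. Its total level was 28.6 and 44.9 CPM in shNSi and 22.8 and 20.5 CPM in shDAP5, so the groups overlapped in neither, and the total levels differed in the same direction as the heavy ones. IARS2 stood at 122 and 242 CPM against 73.7 and 72.1 CPM in heavy polysomes. CARS2, FARS2 and VARS2 were the highest of the group. CARS2 stood at 157 and 188 CPM in shNSi and at 120 and 128 CPM in shDAP5 heavy polysomes, but its total level was also lower in both shDAP5 cultures (111 and 86.4 against 133 and 154 CPM), and its ratio of heavy to total overlapped between the lines. FARS2 (29.6 and 28.3 against 21.2 and 30.99 CPM) and VARS2 (16.002 and 25.5 against 15.3 and 13.9 CPM) are the least abundant of these; FARS2 overlapped and VARS2 did not.

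Changes of the heavy to light polysome ratio do not use the total libraries, and the number of calls moved widely with the processing. Of the 36 genes EPRS and LARS were called, both lower, where 5.21% of all 15878 genes tested were called lower and 6.75% in either direction. EPRS heavy to light log2 ratios were 2.49 and 3.18 in shNSi and 0.71 and 0.59 in shDAP5, and the ratio fell by 2.09 (SE 0.44; adjusted p = 0.0175, edgeR). LARS ratios were 2.61 and 3.21 in shNSi and 1.31 and 1.04 in shDAP5, and fell by 1.64 (SE 0.45; adjusted p = 0.0342, edgeR). The cytosolic median was -1.09 and the mitochondrial median -0.28, and the ratio was lower in each shDAP5 culture than in either shNSi culture for 17 of 20 cytosolic and 9 of 16 mitochondrial genes, against 30.6% of all genes tested. DESeq2 called 10 cytosolic genes and 1 mitochondrial gene (12.1% of all genes), and leaving out shNSi replicate 1 gave 8 and 2 (17.8%). With the shNSi moderate pool in place of the light one, 7 cytosolic and 3 mitochondrial genes were called (23.9%), 1 of each group higher, and the mitochondrial median turned to 0.043. No member was called with no term for each culture (0% of all genes), with the length offset (0.235%) or without shDAP5 replicate 2 (0.0121%). The shNSi moderate pool in place of the heavy one turned both medians, to 0.76 and 0.088, also without a call (0%).

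Paired by amino acid, the cytosolic gene had the lower translation efficiency change in 16 of 17 pairs, with a median difference of -0.65. The widest gaps were for EPRS and PARS2 (-1.57 and -0.23), CARS and CARS2 (-1.08 and 0.22) and NARS and NARS2 (-1.01 and -0.04). AARS and AARS2, with coding sequences of 2904 and 2955 bases, changed by -1.30 and -0.52, and TARS and TARS2, with 2169 and 2154 bases, changed by -1.30 and -0.95. The HARS and HARS2 values lay close together (-0.58 and -0.49), as did WARS and WARS2 (-0.31 and -0.28), and YARS and YARS2 were the exception (-0.30 and -0.38). EPRS and FARS2 each enter 2 pairs, so the 17 are not independent, and no test was made over them.

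**Figure D3:**
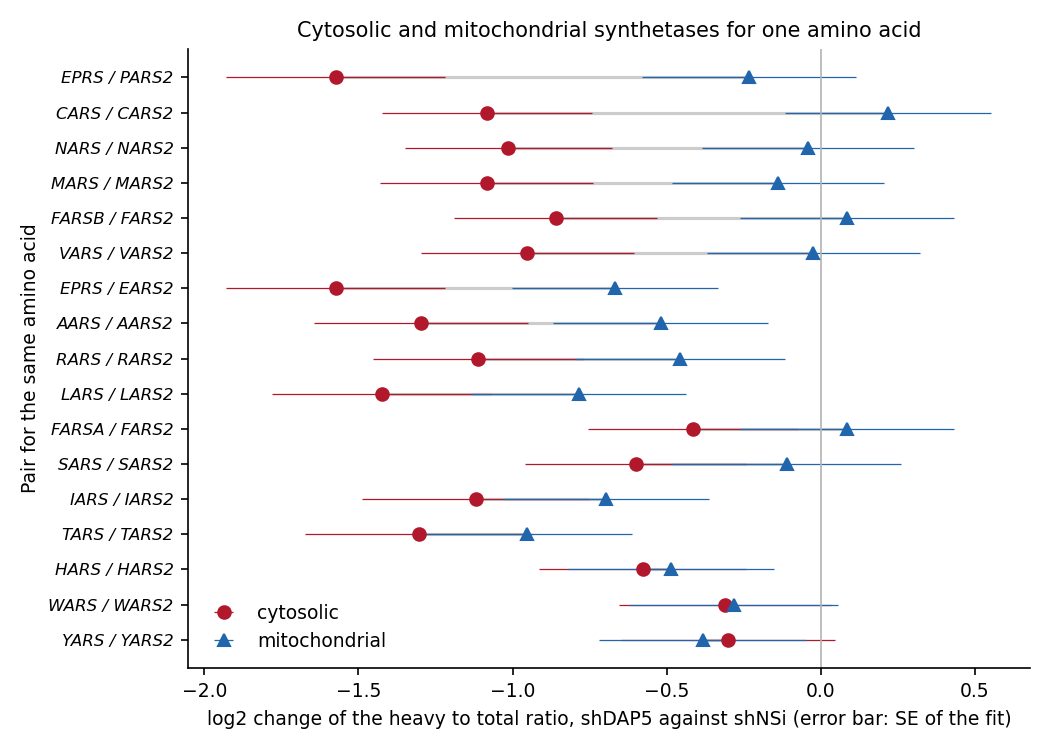
Log2 change of the heavy to total ratio in shDAP5 against shNSi (x axis) for each cytosolic gene (circles) and the mitochondrial gene for the same amino acid (triangles), 1 pair per line and ordered by the difference; error bars are the SE of the fit. The circle lies to the left in 16 of 17 pairs, and in the pair of YARS and YARS2 to the right.

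Coding length moved with these changes. The cytosolic genes have coding sequences of 1413 to 4536 bases (median 2074.5) and the mitochondrial ones of 1080 to 3189 (median 1630.5). Over genes, which are not independent, Spearman's rho between coding length and the translation efficiency change was -0.76 for the 20 cytosolic, -0.38 for the 16 mitochondrial and -0.71 for all 12668 genes with a length, all measured in the same 8 libraries. Set against all genes of like length, the cytosolic medians were lower: from 1500 to 2000 bases -0.62 for 9 cytosolic genes against -0.26 for all genes, from 2000 to 3000 bases -1.08 for 6 against -0.57, and from 3000 to 5000 bases -1.27 for 4 against -0.78. The mitochondrial medians were -0.30, -0.79 and -0.36 in the same ranges, from 6, 3 and 2 genes. Under 1500 bases most genes are shorter than WARS, so narrower bins of 316 and 317 genes, with median lengths of 1377 and 1434 bases and median changes of -0.09 and -0.11, are the closer measure there. WARS, with 1413 bases, was at -0.31, and PARS2, NARS2 and YARS2, with 1425 to 1431 bases, were at -0.23, -0.04 and -0.38. In each of the 3 ranges over 1500 bases every cytosolic value lay inside the 5th to 95th percentile of all genes. The lowest of them, EPRS at -1.57, was near the lower edge of its range, -1.61 to 0.38. In the narrower bin nearest to EPRS, with a median length of 4290 bases, the 5th percentile was also -1.57, so EPRS lay on that edge. With an offset fitted for coding length over all genes, the cytosolic median was -0.55 with all 20 genes below 0, and 2 of them, DARS at -0.86 and TARS at -0.86, still passed the test, where 4.35% of all genes were called in either direction and 2.58% lower. The mitochondrial median was -0.10 and VARS2 moved to 0.66. In pairs the cytosolic gene was still lower in 15 of 17, but the order changed: the gap of EPRS and PARS2, with 4536 and 1425 bases, went from -1.34 to -0.58, behind CARS and CARS2 (-1.08), VARS and VARS2 (-0.85), NARS and NARS2 (-0.84) and AARS and AARS2 (-0.79), among others. What part of the change goes with length itself was not tested.

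**Figure D4:**
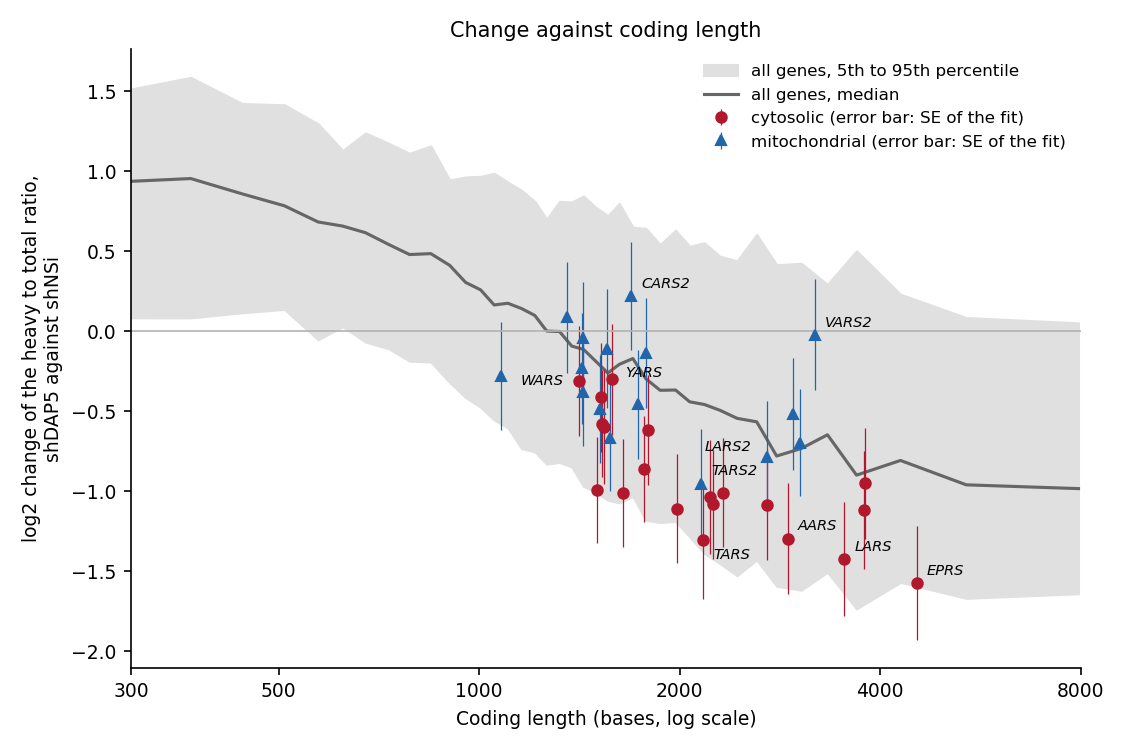
Log2 change of the heavy to total ratio in shDAP5 against shNSi (y axis) against coding length in bases (x axis, log scale) for the cytosolic (circles) and mitochondrial (triangles) genes, with the SE of the fit. The line is the median and the band the 5th to 95th percentile of all genes in 40 bins of equal number; the 4 cytosolic genes over 3000 bases had a median of -1.27, against -0.78 for all genes from 3000 to 5000 bases.

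The direction of these changes depended on which shNSi pool was the control. With the shNSi moderate pool in place of the shNSi heavy pool, the cytosolic median of the translation efficiency change was 0.73, no cytosolic gene was below 0, and none of all 15434 genes tested was called, members included. With the heavy and moderate counts of each shNSi culture summed, the median was -0.24 with 15 of 20 below 0, and again no gene of all 15386 was called. The shNSi moderate pools of the 2 cultures also differed from each other: TARS stood at 156 and 366 CPM, AARS at 54.8 and 96.4 CPM and HARS at 69.9 and 225 CPM, higher in culture 2 each time. Library size in place of TMM left all 20 cytosolic genes below 0 (median -0.80), gave no call among all 15374 genes, and moved the median over all genes from 0.09 to 0.30.

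**Figure D5:**
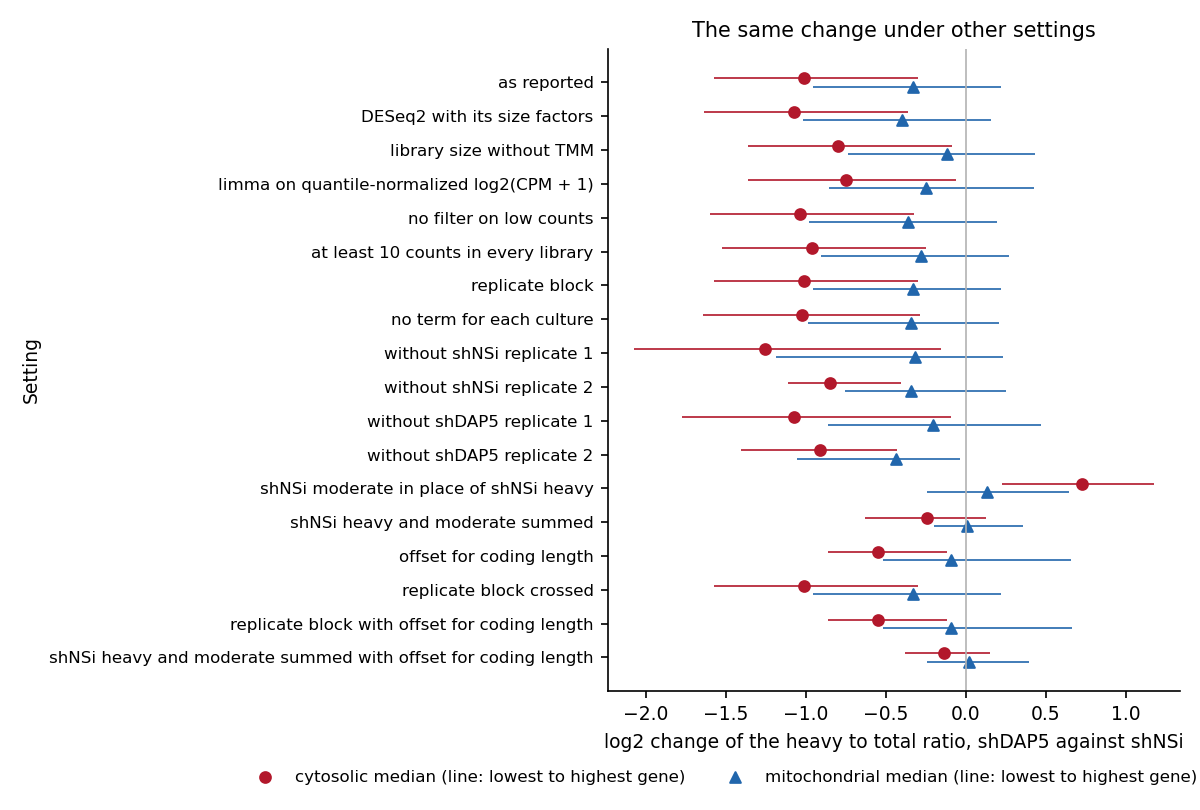
Median log2 change of the heavy to total ratio in shDAP5 against shNSi (x axis) for the cytosolic (circles) and mitochondrial (triangles) genes under each setting (y axis), with a line from the lowest to the highest gene. The cytosolic median was -1.01 as reported, -0.55 with the offset for coding length, -0.24 with heavy and moderate summed, and 0.73 with the moderate pool in place of the heavy one.

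Leaving out 1 culture at a time kept all 20 cytosolic translation efficiency values below 0. The number called was 3 without shNSi replicate 1, 0 without shNSi replicate 2, 11 without shDAP5 replicate 1 and 0 without shDAP5 replicate 2, where the lone culture of a line was assumed to vary like the others. The share of all genes called moved with it, at 3.59%, 0.025%, 28.5% and 0.27% in the same order.

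Within the cytosolic group, the 8 synthetases of the multi-synthetase complex had 7 calls and a median translation efficiency change of -1.10, and the 12 others 5 calls and -0.91; KARS was the complex member without a call. Of all genes tested 8.23% were called lower, and the difference between the 8 and the 12 was not tested. The 2 sets were not matched for coding length. Of the 4 cytosolic genes over 3000 bases, EPRS, IARS and LARS are in the complex and VARS is not. With the length offset the genes called were DARS, of the complex, and TARS, of the others. The complex scaffolds AIMP1, AIMP2 and EEF1E1 had no call, with values from -0.54 for AIMP1 to 0.73 for EEF1E1. Class I and class II cytosolic enzymes, 2 unrelated folds of the catalytic domain, had 6 of 9 and 5 of 10 calls, with medians of -1.08 and -0.93, a difference that was not tested either; EPRS holds an enzyme of each class and was left out of these counts.

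Genes next to the synthetases in the same pathway were mixed. Of 4 cytosolic elongation factors tested, EEF2, which moves the ribosome along the mRNA, fell in translation efficiency by 1.33 (adjusted p = 0.0252, edgeR), and the others did not pass. Of 10 partners of mitochondrial charging and decoding, GFM1, the mitochondrial translocation factor, fell by 1.21 (adjusted p = 0.0211, edgeR), and the median was 0.03. None of 6 other charging genes (TARSL2, AARSD1, PSTK, SEPSECS, DTD1, TRNT1) was called. Of 21 genes of the amino acid response tested, a program under ATF4 that also includes many cytosolic synthetase genes, ASNS (-1.05), which makes asparagine, and PHGDH (-0.97), the first enzyme of serine synthesis, fell in translation efficiency. These counts of 1 of 4, 1 of 10 and 2 of 21 are to be read against the 8.23% of all genes called lower. In heavy polysomes alone the amino acid response list had 5 genes lower (PHGDH, SLC7A11, SLC3A2, SLC7A1 and VLDLR) and 4 higher (ATF4, ATF3, CHAC1 and TRIB3), where 16.7% of all genes were called lower and 30.9% in either direction.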

How the data were processed

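The authors deposited 1 table of whole-number read counts for 58434 gene symbols in 14 libraries, 27 of them date-like; per the submitters' processing notes reads were aligned with STAR 2.6.0a to hg19, the name of the table names featureCounts and carries a tag, rev, that is not explained, and the annotation and strand setting are not given in the sources used here. Counts were taken as deposited, and libraries were grouped by title. Members and gene lists were chosen with earlier results of these data known. The named genes were the 4 lowest and 4 highest cytosolic and 3 lowest and 3 highest mitochondrial changes of the heavy to total ratio, members called in the heavy to light ratio, and FARSA, FARSB, EPRS, GARS and KARS.

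edgeR 4.0.16 in R 4.3.3 (filterByExpr, TMM, robust quasi-likelihood test, Benjamini-Hochberg over all genes tested, threshold 0.05) compared shDAP5 with shNSi in total, light and heavy libraries. Ratios were tested as the interaction of fraction and shRNA with a term for each culture, and gradient steps within each line. The study describes 2 sets of experiments performed independently; whether an shNSi and an shDAP5 culture of the same set are independent of each other is not given in the sources used here, and p-values measure the spread between 2 cultures a line. CPM used TMM over all 14 libraries. Alternatives used DESeq2 1.42.0, limma 3.58.1 on log2(CPM + 1), other filters, pools, blocks and an offset for coding length (loess, span 0.5). Coding lengths, positions and sequences came from GENCODE v29 on GRCh38, matched by symbol (37621 by name and 494 by an older or newer symbol), with lengths for 80.2% to 86.3% of the genes tested. The scripts were tested on simulated data.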

Additional observations from a re-analysis of the deposited data

Results flagged for a closer look

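For 12 cytosolic genes the step from total RNA to heavy polysomes differed between shDAP5 and shNSi by the interaction test of edgeR, which compares that step in the 2 lines directly. The log2 differences were -1.57 for EPRS, -1.42 for LARS, -1.30 for AARS, -1.30 for TARS, -1.12 for IARS, -1.11 for RARS, -1.08 for CARS, -1.08 for MARS, -1.04 for GARS, -1.01 for NARS, -1.01 for QARS and -0.99 for DARS. By the same test the step from light to heavy polysomes differed for EPRS (-2.09) and LARS (-1.64). In the same fits 13.1% and 6.75% of all genes were called in either direction. The calls rest on 2 cultures a line. When 1 culture was left out at a time, the number of calls in both steps moved widely. The share of all genes called moved widely too, and both ranges are given at the end.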

How the results depend on the processing

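Of the recomputed values, 1110 counted as unchanged. These held their direction and side of the threshold, moved by less than the replicate spread or, for counts of calls, moved by a factor of at most 1.5. Of the others, 115 lost the threshold, 32 gained it, 177 moved further and 125 changed sign. The causes were not tested, except that pools and the length offset change the quantity compared. Deviations of same-numbered libraries correlated between -0.17 and 0.05 over 16235 genes in the 6 comparisons of shDAP5 with shNSi. With 2 cultures a line, these values cannot tell whether same-numbered cultures were run as matched sets. As a pairing, the replicate block gave 2 cytosolic calls in heavy translation efficiency, where the main fit gave 12. Crossed numbers gave 14 cytosolic and 3 mitochondrial calls, while the share of all genes called went from 13.1% to 4.48% and to 26.9%. A percentage after a count below is the share of all genes called in that setting, in either direction. The crossed pairing, the block with the length offset, and the summed pools with the length offset were added after the data had been seen. With 2 cultures a line, the same fit on simulated data recovered 53% of 200 genes changed by 1.5 on the log2 scale in heavy translation efficiency among 15320 genes. Of the calls in that simulation 7.02% were false. The simulated counts had the same dispersion for every gene, no culture effects and no trend with coding length. The 53% is therefore not the power of these data, and a member without a call may have changed.

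With DESeq2 and its size factors, calls numbered 1 mitochondrial in heavy translation efficiency (13.2%) and 10 cytosolic and 1 mitochondrial in the heavy to light ratio (12.1%), and in heavy polysome mRNA the sign changed for FARS2 at -0.040. With library size in place of TMM, calls numbered 7 cytosolic and 2 mitochondrial in heavy polysome mRNA (25.5%), 0 cytosolic in heavy translation efficiency (0%) and 4 cytosolic and 1 mitochondrial in the shNSi heavy to total step (33.8%), and in heavy polysome mRNA the sign changed for WARS at 0.17, and in heavy translation efficiency the sign changed for VARS2 at 0.19, and in the heavy to light ratio the sign changed for FARSA at 0.016. With limma on quantile-normalized log2(CPM + 1), calls numbered 3 mitochondrial in heavy polysome mRNA (27.4%), 1 cytosolic in heavy translation efficiency (4.92%) and 1 cytosolic in the heavy to light ratio (6.55%), and in heavy polysome mRNA the sign changed for WARS at 0.29, and in the heavy to light ratio the sign changed for FARSA at 0.087. With no filter on low counts, calls numbered 1 cytosolic and 1 mitochondrial in total mRNA (2.19%) and 5 cytosolic and 1 mitochondrial in the heavy to light ratio (5.31%), and in heavy polysome mRNA the sign changed for FARS2 at -0.049. With a minimum of 10 counts in every library, calls numbered 5 cytosolic and 1 mitochondrial in the heavy to light ratio (11.1%), and in heavy translation efficiency the sign changed for VARS2 at 0.026. With the replicate block, calls numbered 2 cytosolic in heavy translation efficiency (4.48%) and 1 cytosolic in the heavy to light ratio (4.9%). With no term for each culture, calls numbered 0 cytosolic in heavy translation efficiency (0%), 0 cytosolic in the heavy to light ratio (0%), 0 cytosolic and 0 mitochondrial in the shNSi heavy to total step (0%), 0 cytosolic and 0 mitochondrial in the shNSi light to total step (0%) and 1 mitochondrial in the shNSi heavy to moderate step (18.1%). With the shNSi moderate pool in place of the light pool, calls numbered 5 cytosolic and 4 mitochondrial in light polysome mRNA (25.5%), 6 cytosolic and 3 mitochondrial in light translation efficiency (27.5%) and 7 cytosolic and 3 mitochondrial in the heavy to light ratio (23.9%), and in the heavy to light ratio the sign changed for the mitochondrial median at 0.043, FARSA at 0.96, HARS at 0.80 and YARS at 1.07. With shNSi light and moderate counts summed, calls numbered 2 mitochondrial in light translation efficiency (2.86%) and 8 cytosolic and 2 mitochondrial in the heavy to light ratio (15.6%), and in the heavy to light ratio the sign changed for FARSA at 0.41, HARS at 0.23 and YARS at 0.47. With the shNSi moderate pool in place of the heavy pool, calls numbered 0 cytosolic and 0 mitochondrial in heavy polysome mRNA (0.344%), 0 cytosolic in heavy translation efficiency (0%) and 0 cytosolic in the heavy to light ratio (0%), and in heavy polysome mRNA the sign changed for the cytosolic median at 0.48, AARS at 0.92, EPRS at 0.47, FARS2 at -0.22, FARSA at 0.11, FARSB at 0.13, GARS at 1.04, HARS at 0.42, KARS at 0.028, LARS at 0.81, TARS at 0.98, TARS2 at 0.22, WARS at 0.65 and YARS at 0.36, and in heavy translation efficiency the sign changed for the cytosolic median at 0.73, the mitochondrial median at 0.13, AARS at 1.17, CARS2 at -0.064, EPRS at 0.80, FARS2 at -0.14, FARSA at 0.54, FARSB at 0.23, GARS at 0.83, HARS at 0.73, IARS2 at 0.44, KARS at 0.24, LARS at 1.00, LARS2 at 0.46, TARS at 0.98, TARS2 at 0.61, VARS2 at 0.24, WARS at 0.37 and YARS at 0.41, and in the heavy to light ratio the sign changed for the cytosolic median at 0.76, the mitochondrial median at 0.088, AARS at 1.09, EPRS at 0.35, FARSA at 0.80, FARSB at 0.26, GARS at 0.97, HARS at 0.90, IARS2 at 0.21, KARS at 0.39, LARS at 0.85, TARS at 0.86, TARS2 at 0.80, VARS2 at 0.023 and YARS at 0.51. With shNSi heavy and moderate counts summed, calls numbered 0 cytosolic and 0 mitochondrial in heavy polysome mRNA (2.77%), 0 cytosolic in heavy translation efficiency (0%) and 0 cytosolic in the heavy to light ratio (0%), and in heavy translation efficiency the sign changed for the mitochondrial median at 0.0077, FARSA at 0.12, HARS at 0.068, VARS2 at 0.22, WARS at 0.10 and YARS at 0.13, and in heavy polysome mRNA the sign changed for FARS2 at -0.11, WARS at 0.29 and YARS at 0.021, and in the heavy to light ratio the sign changed for FARSA at 0.30, HARS at 0.17 and YARS at 0.16. With an offset for coding length, calls numbered 2 cytosolic and 0 mitochondrial in heavy polysome mRNA (11.9%), 2 cytosolic in heavy translation efficiency (4.35%), 0 cytosolic in the heavy to light ratio (0.235%), 4 cytosolic and 2 mitochondrial in the shNSi heavy to total step (17.1%) and 2 mitochondrial in the shNSi light to total step (15.5%), and in the shNSi light to total step the sign changed for the mitochondrial median at 0.024, and in heavy polysome mRNA the sign changed for VARS2 at 0.42 and WARS at 0.041, and in heavy translation efficiency the sign changed for VARS2 at 0.66, and in the heavy to light ratio the sign changed for VARS2 at 0.58. With the replicate block in crossed pairing, calls numbered 3 mitochondrial in heavy polysome mRNA (27.2%), 3 mitochondrial in heavy translation efficiency (26.9%) and 8 cytosolic and 1 mitochondrial in the heavy to light ratio (14.1%). With the block and an offset for coding length, calls numbered 3 mitochondrial in heavy polysome mRNA (24.2%), 1 cytosolic in heavy translation efficiency (4.65%) and 0 cytosolic in the heavy to light ratio (2.08%), and in heavy polysome mRNA the sign changed for VARS2 at 0.43 and WARS at 0.076, and in heavy translation efficiency the sign changed for VARS2 at 0.66, and in the heavy to light ratio the sign changed for VARS2 at 0.58. With heavy and moderate counts of shNSi summed and an offset for coding length, calls numbered 0 cytosolic and 0 mitochondrial in heavy polysome mRNA (0.221%), 0 cytosolic in heavy translation efficiency (0%) and 0 cytosolic in the heavy to light ratio (0%), and in heavy translation efficiency the sign changed for the mitochondrial median at 0.018, FARSA at 0.10, HARS at 0.057, IARS2 at 0.082, LARS2 at 0.0025, VARS2 at 0.39, WARS at 0.072 and YARS at 0.13, and in the heavy to light ratio the sign changed for the mitochondrial median at 0.12, FARSA at 0.32, GARS at 0.087, HARS at 0.20, KARS at 0.086, TARS2 at 0.13, VARS2 at 0.33 and YARS at 0.20, and in heavy polysome mRNA the sign changed for FARS2 at -0.039, GARS at 0.12, VARS2 at 0.14, WARS at 0.37 and YARS at 0.13. With all 14 libraries in one fit, the sign changed in heavy polysome mRNA for FARS2 at -0.15.

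Leaving out 1 culture at a time gave the following lowest and highest values. Heavy polysome mRNA had FARS2 -0.30 to 0.24, VARS2 -0.71 to 0.015, WARS -0.43 to 0.30, cytosolic calls 0 to 12 and mitochondrial calls 0 to 5. The heavy to light ratio had FARS2 -0.23 to 0.72, FARSA -0.72 to 0.29, WARS -0.63 to 0.76, YARS -0.79 to 0.29, cytosolic calls 0 to 8 and mitochondrial calls 0 to 2. Heavy translation efficiency had CARS2 -0.040 to 0.47, FARS2 -0.16 to 0.33, VARS2 -0.21 to 0.13, cytosolic calls 0 to 11 and mitochondrial calls 0 to 1. Light polysome mRNA had cytosolic calls 0 to 4, the mitochondrial median -0.47 to 0.020 and mitochondrial calls 0 to 6. Light translation efficiency had cytosolic calls 0 to 2, the mitochondrial median -0.17 to 0.065 and mitochondrial calls 0 to 2. Total mRNA had cytosolic calls 0 to 1 and mitochondrial calls 0 to 1. Over all genes the share called in these fits ran from 0.0134% to 23.7% in heavy polysome mRNA, 0.0121% to 17.8% in the heavy to light ratio, 0.025% to 28.5% in heavy translation efficiency, 0.0125% to 28.9% in light polysome mRNA, 0% to 12.3% in light translation efficiency and 0% to 2.47% in total mRNA.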
